A study of Homo sapiens with 8 samples.

Results

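The genes described here are those of the long arm of chromosome 8 that were expressed in SH-SY5Y cells. A gene of the deposited expression table was a member when it lay on chromosome 8 of hg38 with a start of at least 45 Mb and its normalized counts averaged 100 or more across the 8 libraries. Of the 47591 genes in the table, 1150 lie in this stretch, 868 of them had a mean below 100 (534 were at 0 in every library) and 16 were left out by name, among them the mitochondrial ribosomal protein genes, which left 266 members. By RefSeq biotype 240 members are protein-coding, 11 are long noncoding RNAs, 1 is a transcribed pseudogene and 14 could not be matched, of which 4 have no symbol. The 182 genes of chromosome 8 below 45 Mb with a mean of at least 100, nearly all of the short arm, served as reference. The members themselves were selected on position and mean level. The stretch was chosen by its log2 fold changes, which an earlier look at these data had found higher in G2 than in both controls. Its values in G2/SCR and G2/WT are therefore given as a description. Calls in these comparisons rest on p-values of single genes, and their counts are no test of the stretch.

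SH-SY5Y is a human neuroblastoma cell line with properties of immature sympathetic neurons. The study asked what the splicing factor gene PRPF40B does in these cells, and polyadenylated RNA was sequenced from 3 lines. G2 cells (3 libraries) carried a CRISPR/Cas9 edit made with a guide against PRPF40B, SCR cells (3 libraries) received a scrambled control guide, and WT cells (2 libraries) were not edited. All were grown in DMEM with 10% fetal bovine serum, the SCR and G2 cells with puromycin. The edited cells were selected with puromycin and single colonies were obtained by limiting dilution, so G2 is a line grown from a colony, and what differs between G2 and the controls cannot be told apart from what differs between colonies. The libraries of a line are labelled as biological replicates of that line, and the spread given below is the spread between these libraries.

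The long arm of chromosome 8 holds many protein-coding genes of unrelated function. They include subunits of complexes whose other subunits are encoded elsewhere, such as RAD21 of the cohesin ring that holds sister chromatids together, PRKDC, the catalytic subunit of the DNA-dependent protein kinase, and COPS5, the catalytic subunit of the COP9 signalosome. RNA was the only material measured in these libraries, and the DNA of the 3 lines was not analysed here.

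The recovered totals ran from 59804395 to 81080747 counts per library, and all values were whole multiples of 1 step per library. PRPF40B (chromosome 12) had normalized counts of 840.2, 841 and 918 in G2, 1686, 1672 and 1669 in SCR, and 1972 and 1668 in WT, and all G2 libraries lay below all control libraries (exact two-sided permutation test of 3 against 5 libraries over 56 groupings, p = 0.018, the smallest p this design allows). Of the 12 adrenergic neuroblastoma markers, 11 in G2 and 12 in SCR and in WT reached 10 normalized counts, with none at 0. Their summed level was 108762 to 118207 normalized counts in G2, 221107 to 236479 in SCR and 247379 to 261171 in WT. The 12 mesenchymal markers summed to 389131 to 393064 in G2, 140042 to 147380 in SCR and 106416 to 120815 in WT, with FN1 listed at 0 in G2 and WT and PRRX1 at 0 in SCR and WT. The 6 epithelial markers summed to 290 to 422 in G2, 261 to 300 in SCR and 256 to 297 in WT. The 5 immune markers summed to 666 to 738 in G2, 61.9 to 83.7 in SCR and 77 to 133 in WT, with CD3E listed at 0 in all 3 lines and PTPRC at 0 in SCR and WT. These shifts between the lines stand beside every comparison below, and their part in the values of the members was not tested. In bulk RNA, fewer cells of a type and less RNA per cell cannot be told apart.

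The median log2 fold change of the 266 members was 0.39 in G2/SCR, a ratio of 1.31, and 0.35 in G2/WT, a ratio of 1.28. In SCR/WT the median was -0.06. Over all 13065 genes with a mean of at least 100 the medians were 0.01, -0.01 and -0.03 in the same order. A gene was called when its fold change reached 1.5 with an unadjusted p no higher than 0.05 in a limma fit over all 18947 tested genes, and "rose" and "fell" are used for such genes only. In G2/SCR, 105 members (39.5%) rose and 17 fell, where 15.1% of all tested genes were called higher and 11.8% lower. In G2/WT, 94 rose and 19 fell, beside 17.7% and 12.2% of all tested genes. In SCR/WT, 16 rose and 13 fell, beside 10.7% and 5.63%, and with all libraries scaled to the same total these numbers were 49 and 6. The tested genes reach down to a mean of 10, below the level of the members. Of the 13065 genes at the members' level, 14.7% were called higher and 8.89% lower in G2/SCR. In G2/WT these shares were 16.1% and 11.7%, and in SCR/WT 7.66% and 5.53%. Members that passed in G2/SCR and G2/WT with 1 sign, but not in SCR/WT, numbered 70 higher and 8 lower, where 8.13% and 5.63% of all tested genes were so called.

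All 3 G2 libraries lay above all 5 control libraries for 147 members (55.3%) and below them for 30 (11.3%), where the shares over all tested genes were 22.8% and 19.7%. Over the 13065 genes at the members' level they were 26.1% and 23.4%. An adjusted p no higher than 0.05 (limma, Benjamini-Hochberg), at any fold, was reached by 161 members on the higher and 35 on the lower side in G2/SCR, beside 25.7% and 23.4% of all tested genes. In G2/WT the numbers were 159 and 47, beside 27.2% and 25.4%. In SCR/WT they were 46 (17.3%) and 66 (24.8%), beside 17% and 18.3%, and with the same total for all libraries 116 and 16. At the members' level the shares of the 13065 genes were 31.2% and 27.2% in G2/SCR and 31% and 32% in G2/WT. In SCR/WT they were 19.1% and 25.1%, near those of the members.

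The higher values in G2 were not spread over the whole arm. From 45 to 125 Mb the 10 Mb windows had medians between 0.47 and 0.75 in G2/SCR and between 0.36 and 0.80 in G2/WT, over 8 windows. The 13 members between 125 and 135 Mb had medians of -0.03 and 0.09, and the 81 members beyond 135 Mb had medians of -0.11 and -0.17. On the other side of the boundary, the reference windows gave -0.06 and -0.09 for the 44 genes below 15 Mb, 0.13 and 0.18 for the 75 genes from 15 to 30 Mb, and 0.18 and 0.14 for the 63 genes from 30 to 45 Mb. The split at 125 Mb was set after these values were seen, and is used below to describe 172 members nearer the centromere and 94 members nearer the end of the arm.

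**Figure D1:**
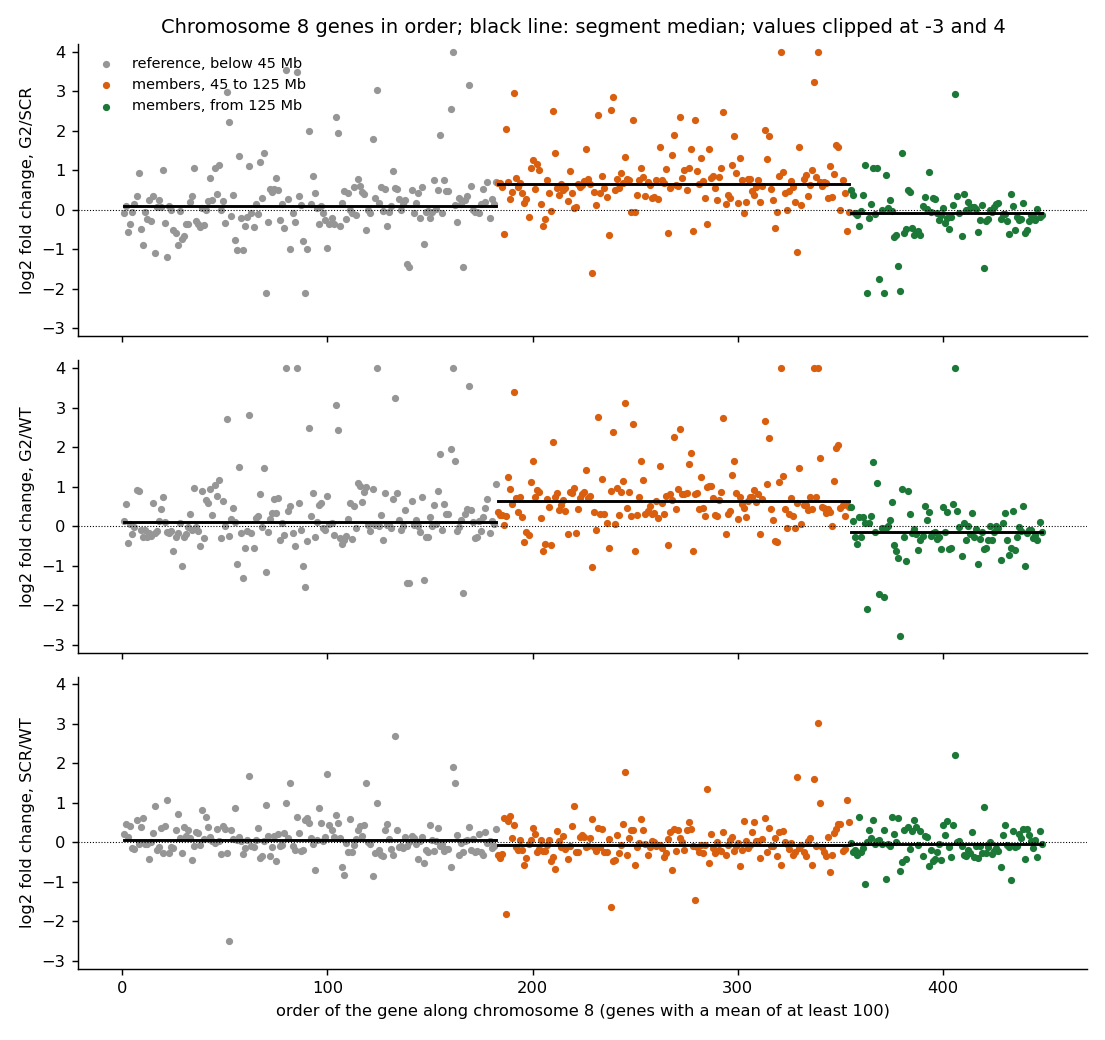
Log2 fold changes of 182 reference genes and 266 members, plotted in the order of the genes along chromosome 8, for G2/SCR, G2/WT and SCR/WT. The black lines are segment medians, which stood at 0.09, 0.66 and -0.09 in G2/SCR, at 0.10, 0.63 and -0.15 in G2/WT, and at 0.06, -0.06 and -0.05 in SCR/WT.

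The 172 members from 45 to 125 Mb had a median of 0.66 on the log2 scale for G2/SCR (quartiles 0.33 and 0.97), a ratio of 1.58, and of 0.63 in G2/WT (quartiles 0.30 and 0.91), a ratio of 1.55. Above 0 were 152 of them in G2/SCR, 151 in G2/WT and 143 in both. In G2/SCR 98 rose and 4 fell, and in G2/WT 88 rose and 4 fell. All G2 libraries lay above all control libraries for 136 of the 172 (79.1%), and below them for 8. The 94 members from 125 Mb on had medians of -0.09 and -0.15, with 7 rising and 13 falling in G2/SCR and 6 rising and 15 falling in G2/WT. All G2 libraries lay above all control libraries for 11 of these and below them for 22. When all libraries were scaled to the same total, the G2/WT median of these 94 members turned to 0.03.

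The same contrast appeared library by library. For each gene the log2 value of a library was set against the mean of the gene over the 8 libraries, and the median was taken over genes. For the members from 45 to 125 Mb this median was 0.40 ± 0.04 in G2 (SD, n = 3), -0.25 ± 0.04 in SCR (n = 3) and -0.21 ± 0.08 in WT (n = 2). The lowest G2 library stood at 0.37 and the highest control library at -0.15, so the lines did not overlap, while SCR and WT did. For the members from 125 Mb on the values were -0.06 ± 0.06, 0.03 ± 0.05 and 0.08 ± 0.15, and for the reference genes 0.061 ± 0.0038, -0.026 ± 0.0046 and -0.076 ± 0.024. The 2 WT libraries differed most in the end of the arm, at 0.19 and -0.02.

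**Figure D2:**
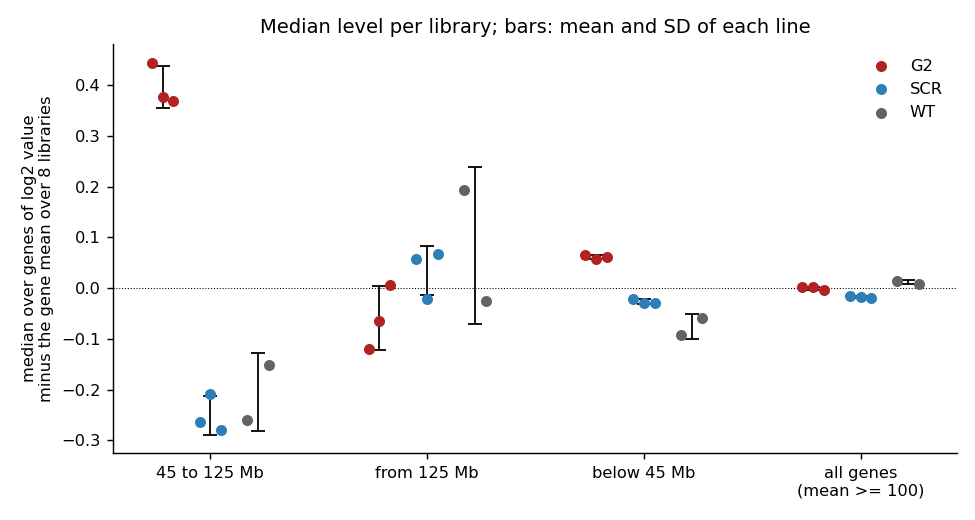
Median over genes of the log2 value minus the mean of the gene over 8 libraries, for each library (points) with the mean and SD of each line, in 3 stretches of chromosome 8 and over all genes with a mean of at least 100. From 45 to 125 Mb the G2 libraries sit between 0.37 and 0.45 and the control libraries between -0.28 and -0.15.

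Most members from 45 to 125 Mb were displaced, and a tail of larger changes stood beside this displacement. In G2/SCR the 10th and 90th percentiles of the 172 members were -0.03 and 1.65. Over all genes with a mean of at least 100 they were -0.55 and 0.83. Log2 fold changes between 0.3 and 0.9 were found for 85 members (49.4%) in G2/SCR and 85 in G2/WT, beside 16.8% and 19.2% of all these genes. This range surrounds the median of the 172 members, so the difference in shares restates that median. Members of every level took part: split into 3 equal parts by mean count, the median in G2/SCR was 0.75 for the lowest, 0.69 for the middle and 0.58 for the highest part. Split the same way by GC content of the gene body, the medians were 0.75, 0.68 and 0.52 from low to high GC. In G2/WT the medians fell more steeply. They were 0.74, 0.60 and 0.47 from low to high mean count, and 0.82, 0.69 and 0.37 from low to high GC. The GC content differed along the arm, with a median of 38.6% from 45 to 125 Mb and 57.4% beyond. Genes of other chromosomes also differed by GC content, with a median of 0.08 in the lowest and -0.09 in the highest GC decile in G2/SCR and of 0.14 and -0.17 in G2/WT. With the median of the GC decile subtracted, the members from 45 to 125 Mb stood at 0.59 and 0.55 and those beyond at -0.02 and -0.02. The 157 protein-coding members of the stretch had a G2/SCR median of 0.68, and the 6 long noncoding RNAs one of 0.29.

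**Figure D3:**
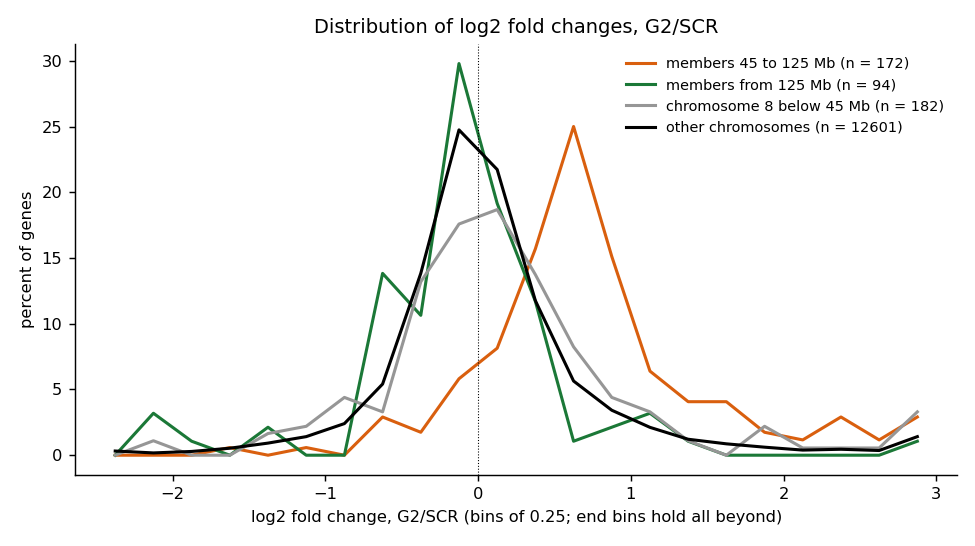
Percent of genes in bins of 0.25 of the log2 fold change in G2/SCR for members from 45 to 125 Mb (n = 172), members from 125 Mb (n = 94), reference genes below 45 Mb (n = 182) and genes of other chromosomes with a mean of at least 100 (n = 12601). The curve of the first group peaks in the bin centred at 0.625 and the others peak within 0.125 of 0.

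Set against the other chromosomes, the stretch held the highest windows in G2/SCR but not all of the highest in G2/WT. Chromosome medians outside chromosome 8 ran from -0.13 to 0.09 in G2/SCR, from -0.16 to 0.08 in G2/WT and from -0.10 to 0.03 in SCR/WT. Among 290 windows of 10 Mb with at least 10 genes, counted with the genes left out by name, the 7 windows of this stretch had G2/SCR medians of 0.48 to 0.75, and the highest of the other 283 was 0.44, on chromosome 4. In G2/WT the 7 windows had medians of 0.36 to 0.74, and 13 other windows reached at least the lowest of these, with 0.56 on chromosome 12 as the highest. The windows from 80 Mb on chromosome 12 (0.39 and 0.56) and from 140 Mb on chromosome 7 (0.39 and 0.53) had the highest medians outside the stretch when windows were ranked by the smaller of both values, and they ranked above 1 of the 7 windows. Both comparisons share the G2 libraries, so they are not independent of each other.

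The members from 45 to 125 Mb are described next by role. Over all of them 57.0% rose in G2/SCR and 51.2% in G2/WT, beside 15.1% and 17.7% of all tested genes, and the counts of each list stand beside these shares. No test set a list apart from the rest of the stretch. Of 16 members of the list for cell cycle, DNA replication and repair, 11 rose and 0 fell in G2/SCR, with a median log2 fold change of 0.67, and 5 rose and 0 fell in G2/WT, with a median of 0.40. RAD21, the kleisin subunit of cohesin (gene GSHG0042652, from 116845934 to 116874776 on chromosome 8 of hg38, as are all positions that follow), had normalized counts of 40717, 39886 and 38470.4 in G2, 21276, 22137 and 20919.6 in SCR, and 26402 and 28238 in WT. Every G2 library was higher than every control library, and WT lay above SCR. The log2 fold change was 0.89 ± 0.05 (standard error) in G2/SCR, a rise, and 0.54 ± 0.06 in G2/WT, short of the fold threshold. PRKDC (GSHG0042347, from 47773108 to 47960183) had 5815, 5940.3 and 5592 in G2, 3993, 3483 and 3419.8 in SCR, and 4953 and 4585 in WT, which gave 0.67 ± 0.07 in G2/SCR and 0.28 ± 0.08 in G2/WT. Its G2 libraries were again the highest, but the distance to WT was less than that to SCR. NBN, of the complex that senses DNA double-strand breaks, followed with 0.67 and 0.31, and ATAD2, a bromodomain ATPase, with 1.11 and 0.37. AZIN1, an inhibitor of the protein antizyme that controls polyamine synthesis, was also on this list and had 0.20 and -0.21, with its highest values in WT.

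Of 15 members of the ubiquitin and proteasome list, 10 rose for G2/SCR and 6 for G2/WT, and 0 fell in either, with medians of 0.62 and 0.54. UBE2V2, a partner of ubiquitin-conjugating enzymes, had normalized counts of 18561, 18305 and 16902 in G2, 12036, 12159.9 and 11701 in SCR, and 15301 and 14133 in WT. The G2 libraries were the highest and the SCR libraries the lowest, at 0.58 ± 0.05 in G2/SCR and 0.28 ± 0.06 in G2/WT, both below the fold threshold. DERL1, a channel component for the export of misfolded proteins from the endoplasmic reticulum, stood at 0.60 ± 0.05 and 0.49 ± 0.06. It passed the fold threshold in G2/SCR by little, and did not pass it (0.56) when G2 replicate 1 or SCR replicate 2 was left out. Of 20 members of the membrane traffic and lysosome list, 14 rose and 1 fell in G2/SCR and 13 rose and 0 fell in G2/WT, with medians of 0.77 and 0.75. LAPTM4B, a membrane protein of late endosomes and lysosomes (GSHG0041868, from 97775053 to 97853013), had 21959, 21958 and 21089 in G2, 10740.3, 10247 and 10071 in SCR, and 12380.4 and 11545 in WT. All G2 values were far above all control values, and the log2 fold changes were 1.07 ± 0.05 and 0.86 ± 0.06. TRAM1, of the protein translocation channel, had 1.55 and 1.43, RAB2A, a small GTPase of the early secretory pathway, 0.77 and 0.69, and SDCBP (syntenin) 1.15 and 0.90.

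Between 45 and 125 Mb, 13 of 17 signalling ligands, receptors, kinases and phosphatases rose and 0 fell in each G2 comparison. Their medians of 1.53 and 1.06 were above those of the other lists in this stretch, but follow in part from the filter on the mean. Of these members, PAG1 and MATN2 averaged below 100 in SCR and in WT, and RGS20 averaged 100.3 in SCR and 73.6 in WT. DEPTOR drew most of its mean from G2. YWHAZ, a 14-3-3 protein that binds phosphorylated partners, had normalized counts of 49666, 47152 and 47217 in G2, 26779, 29162 and 28488 in SCR, and 29251 and 32601 in WT. The G2 libraries lay above the other 5, SCR/WT was not called, and the log2 fold changes in the G2 comparisons were 0.77 ± 0.06 and 0.64 ± 0.06. In G2/WT the call was lost without WT replicate 1 (0.56). PDP1, a phosphatase that activates pyruvate dehydrogenase, had 1.53 and 1.86, STK3, a kinase of the Hippo pathway, 1.87 and 1.65, and DEPTOR, an inhibitor of mTOR, 3.23 and 4.84. LYN, a kinase of the SRC family, was not called, at 0.18 and -0.39.

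Transcription factors and chromatin regulators numbered 22 in this stretch, of which 14 rose and 0 fell in G2/SCR (median 0.68), and 12 rose and 1 fell in G2/WT (median 0.72). CHD7, a chromatin remodeller of neural crest development, had normalized counts of 9578, 9271 and 9204 in G2, 7304, 6949 and 6553 in SCR, and 5883 and 7607 in WT. The G2 libraries were the highest, the 2 WT libraries lay apart from each other on either side of SCR, and neither comparison passed the fold threshold (0.43 ± 0.08 and 0.48 ± 0.09). In G2/WT it passed, at 0.67, without WT replicate 2. ZFHX4 had 0.79 and 0.98, EYA1 0.65 and 0.76, and NCOA2, a coactivator of nuclear receptors, 0.73 and 0.87. Of 20 members with roles in metabolism and mitochondria, 9 rose and 0 fell in G2/SCR and 10 rose and 1 fell in G2/WT, with medians of 0.57 and 0.52. BPNT2, a phosphatase of the Golgi (GSHG0042402, from 56957931 to 56993868), had 11330.5, 11034 and 10932 in G2, 5173, 5714 and 5023 in SCR, and 4756 and 5412 in WT. These values separated G2 from both controls, which overlapped, at 1.07 ± 0.07 and 1.13 ± 0.07. Several genes stood on more than 1 list and were counted in each. The members of the neuronal and ion channel list were few (6), with 3 rising and 1 falling in G2/SCR (median 0.99) and 3 rising and 0 falling in G2/WT (median 0.24). The 3 that rose were BAALC, RUNX1T1, a transcriptional corepressor, and PI15, a secreted protease inhibitor. GDAP1 had -0.64 and -0.55, CALB1 -0.58 and -0.48, and RIMS2 -0.06 and -0.41. The medians therefore do not describe a common change of neuronal genes.

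In the list for RNA processing and translation, 9 of 25 members rose and 0 fell in G2/SCR, 7 rose and 0 fell in G2/WT, and the median was 0.37 in both, beside 0.66 and 0.63 for the whole stretch. RPS20, a protein of the small ribosomal subunit (GSHG0042393, from 56067252 to 56074510), had normalized counts of 94494, 91392 and 91926 in G2, 73547, 75054 and 83052 in SCR, and 109148 and 95704 in WT. Here G2 lay above SCR and below both WT libraries, at 0.26 ± 0.06 and -0.14 ± 0.07. RPL30, of the large subunit, also lay between the controls, at 0.14 ± 0.05 and -0.19 ± 0.06. RPL7 had 0.12 ± 0.08 and -0.11 ± 0.09, with the WT libraries on both sides of G2. EIF3E, a subunit of initiation factor eIF3, stood at -0.01 ± 0.05 and -0.05 ± 0.06. Ribosomal protein genes have many near-identical copies in the genome, so their counts are uncertain, and RPL30 overlaps MATN2.

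These genes were then set beside their own partners, the other subunits of the same complex encoded on other chromosomes. The list of 22 complexes was written after the values of the members were known, and no subunit was dropped for its value. The 75 ribosomal protein genes on other chromosomes had medians of -0.49 for G2/SCR and -0.80 for G2/WT on the log2 scale. RPS20, RPL7 and RPL30 lay above these medians by 0.76, 0.61 and 0.64 in G2/SCR and by 0.66, 0.69 and 0.61 in G2/WT. RPL8, which lies at the end of the arm, had -0.59 and -0.997, at distances of -0.09 and -0.20 from these medians. The 10 partner genes of eIF3 had medians of -0.39 and -0.60, and EIF3E and EIF3H lay above them by 0.37 and 0.52 in G2/SCR.

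The same held for each listed complex with a subunit from 45 to 125 Mb, and complexes outside the list were not examined. There were 20 such subunits in 16 complexes, and 20 of 20 lay above the median of their partners in G2/SCR and again in G2/WT. The distance was 0.30 to 0.92 in G2/SCR, with a median of 0.68, and 0.38 to 0.93 in G2/WT, with a median of 0.60. The highest distance in both was that of YWHAZ, whose 14-3-3 partners are a protein family that the list counted as a complex. In SCR/WT 9 of 20 lay above, with a median distance of -0.02. RAD21 stood 0.74 above the 4 other cohesin genes, whose median was 0.15. COPS5 stood 0.68 above 8 other signalosome genes, VIRMA 0.85 above 6 other genes of the RNA methyltransferase complex that marks adenosines, TAF2 0.69 above 11 other genes of the general transcription factor TFIID, and YWHAZ 0.92 above the 5 other 14-3-3 genes (all G2/SCR). Of the 7 subunits from 125 Mb on, 5 lay above their partners in each comparison, with median distances of 0.08 and 0.07. The stretch was chosen with its rise in both G2 comparisons known.

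**Figure D4:**
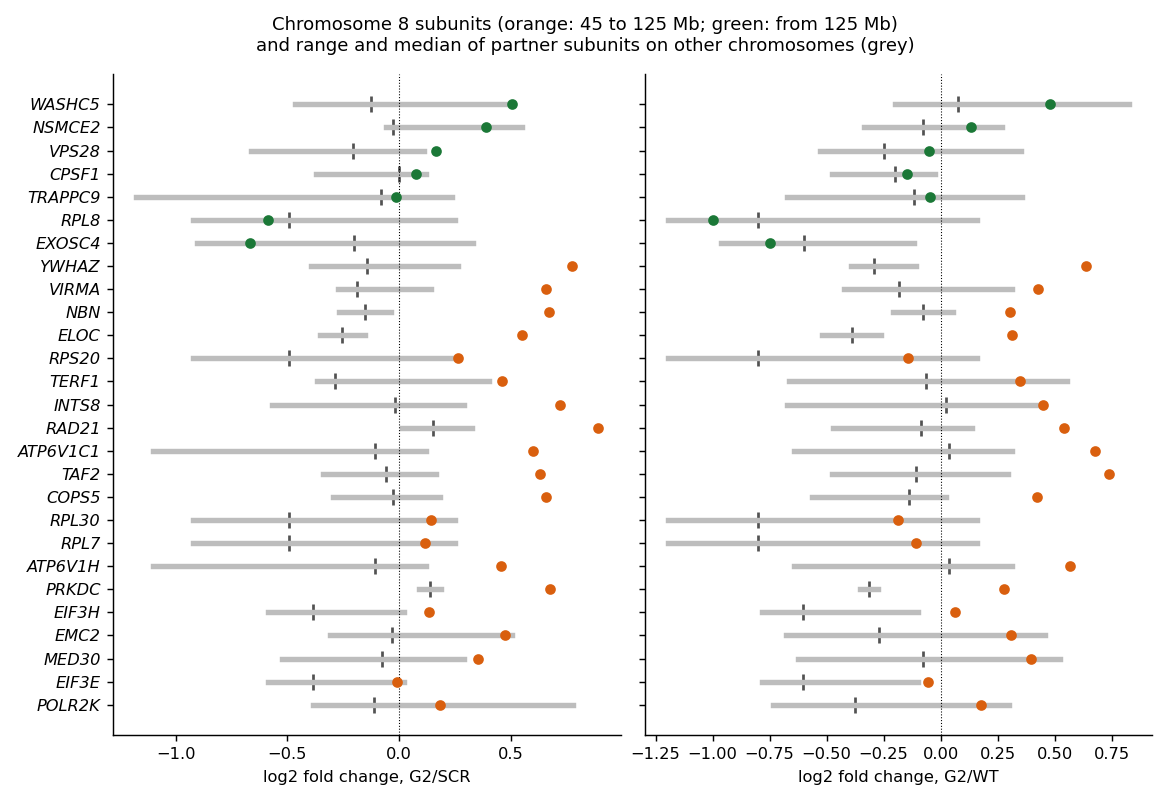
Log2 fold changes in G2/SCR (left) and G2/WT (right) of subunits encoded on the long arm of chromosome 8 (dots) beside the range (bar) and median (tick) of the partner subunits on other chromosomes. All 20 listed subunits from 45 to 125 Mb lie to the right of the median of their partners, by 0.30 to 0.92 in G2/SCR.

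Some members exceeded the common shift by far. The rule for these named the 8 members with the largest rise in both G2 comparisons and no call in SCR/WT. All of them lie between 45 and 125 Mb. The mean of 100 was taken over all libraries, so a gene low in both controls was a member only when G2 was high. RDH10, PAG1, MATN2 and ZFPM2-AS1 averaged below 100 in SCR and in WT, and RGS20 averaged 100.3 in SCR and 73.6 in WT. For such genes a large rise follows in part from the filter. RGS20, a regulator of G protein signalling (GSHG0041680, from 53851795 to 53959304), had normalized counts of 747, 846 and 735 in G2, 79.6, 115 and 106 in SCR, and 85.7 and 61.6 in WT. The G2 values were several times those of any control library, at 2.95 ± 0.17 in G2/SCR and 3.40 ± 0.19 in G2/WT. ASPH, an aspartyl hydroxylase of the endoplasmic reticulum (GSHG0042419, from 61500556 to 61714592, overlapping CLVS1), had 6719, 6710.0 and 6609.6 in G2, 1199, 1200.3 and 1125 in SCR, and 1322 and 1729.5 in WT. Its G2 libraries were close together and far above the controls, at 2.51 ± 0.09 and 2.14 ± 0.10. CRISPLD1, a secreted protein of the CAP family (GSHG0041784, from 74984505 to 75034558), had 14048, 13347 and 12779 in G2, 1900.3, 1943 and 1712 in SCR, and 2540.4 and 2578 in WT, the most abundant of these 8, with 2.85 ± 0.06 and 2.39 ± 0.07. All controls were low, and WT lay above SCR.

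RDH10, a retinol dehydrogenase of retinoic acid synthesis (GSHG0041771, from 73294602 to 73325281), had normalized counts of 516, 544 and 444 in G2, 92.9, 105 and 84.6 in SCR, and 72 and 74.5 in WT, low in all controls, with log2 fold changes of 2.40 ± 0.14 and 2.75 ± 0.16. RUNX1T1, a transcriptional corepressor (GSHG0042553, from 91954967 to 92103385), had 756, 1047 and 832 in G2, 167, 203 and 147 in SCR, and 174 and 143 in WT. Its G2 libraries varied more than those of the genes above but did not approach the controls, at 2.34 ± 0.15 and 2.46 ± 0.17. PAG1, a membrane adaptor for kinases of the SRC family, rose by 2.27 ± 0.23 and 2.57 ± 0.26. MATN2, an extracellular matrix protein, rose by 2.47 ± 0.21 and 2.73 ± 0.24, and it overlaps RPL30, whose reads cannot be told apart from its own without the strand setting of the counting. The antisense RNA ZFPM2-AS1 (GSHG0042631, from 105780410 to 106060503) had 532, 564 and 549 normalized counts in G2 and at most 3.97 in any control library. It was at the floor of 9 recovered counts in SCR and WT, so G2 exceeded SCR by at least 67.3-fold and WT by at least 54.5-fold. With the genes at the floor set to these bounds the medians of the members were 0.39 and 0.35, as before.

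A few members of the stretch went the other way. In G2/SCR the 4 that fell were EFCAB1, LOC392232, GDAP1 and SYBU, and in G2/WT TOX, LOC392232, FABP5 and 1 gene without a symbol, all but LOC392232 and GDAP1 named after their values were seen. GDAP1, a mitochondrial protein whose loss causes a peripheral neuropathy (GSHG0041777, from 74350383 to 74488872), had normalized counts of 7094, 6397 and 6655 in G2, 10167, 10779 and 10461 in SCR, and 9502 and 10177 in WT. Its G2 libraries lay below all controls, with -0.64 ± 0.06 for G2/SCR and -0.55 ± 0.06 for G2/WT. The second value passed the fold threshold without G2 replicate 1 (-0.59) or without WT replicate 1 (-0.60). LOC392232 (GSHG0042469, from 72202752 to 72479908) had 81.9, 92 and 61.3 in G2, 224, 271 and 221 in SCR, and 109 and 229 in WT. Both WT libraries differed from each other more than G2 did from the lower of them, and the G2/WT change of -1.03 ± 0.28 was not called without WT replicate 2 (-0.49), while that in G2/SCR was -1.61 ± 0.25. TOX, an HMG-box protein, had -0.41 ± 0.06 and -0.62 ± 0.06. FABP5, a fatty acid binding protein, had -0.06 ± 0.07 and -0.62 ± 0.08, with WT alone above the other lines.

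The 2 controls differed from each other at some members too, a comparison that played no part in the choice of the stretch. HAS2, the synthase of the matrix polysaccharide hyaluronan (GSHG0042680, from 121612116 to 121641440, overlapping HAS2-AS1), had normalized counts of 415, 392 and 368 in G2, 19.4, 24.4 and 17.4 in SCR, and 1.24 and 1.99 in WT. It was at the floor in WT, which SCR exceeded by at least 2.03-fold and G2 by at least 38.9-fold. Its G2/SCR log2 fold change was 4.21 ± 0.27. HAS2 averaged 20.4 in SCR and 1.61 in WT, so it was a member only through its G2 values. PXDNL, a peroxidasin-like protein (GSHG0042360, from 51319577 to 51809445), had 236, 199 and 230.0 in G2, 42.9, 69.4 and 48.4 in SCR, and 184 and 189 in WT. Here SCR alone was low, at -1.81 ± 0.21 in SCR/WT (adjusted p = 5.5e-05, Benjamini-Hochberg, limma), while G2/WT was 0.25 ± 0.21. PI15, a secreted protease inhibitor next to CRISPLD1, had 6469, 5694 and 5861 in G2, 1012, 1026 and 1094 in SCR, and 2652 and 4007 in WT, with SCR lowest, WT between and G2 highest. Its SCR/WT change was -1.64 ± 0.13 (adjusted p = 4.1e-06, Benjamini-Hochberg, limma), and its G2/WT change of 0.88 ± 0.13 was not called without WT replicate 1 (0.58). SYBU, a protein of axonal transport, was highest in SCR, at 1.66 ± 0.16 in SCR/WT (adjusted p = 1.5e-05, Benjamini-Hochberg, limma), so that it fell in G2/SCR at -1.07 and had 0.58 in G2/WT.

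**Figure D5:**
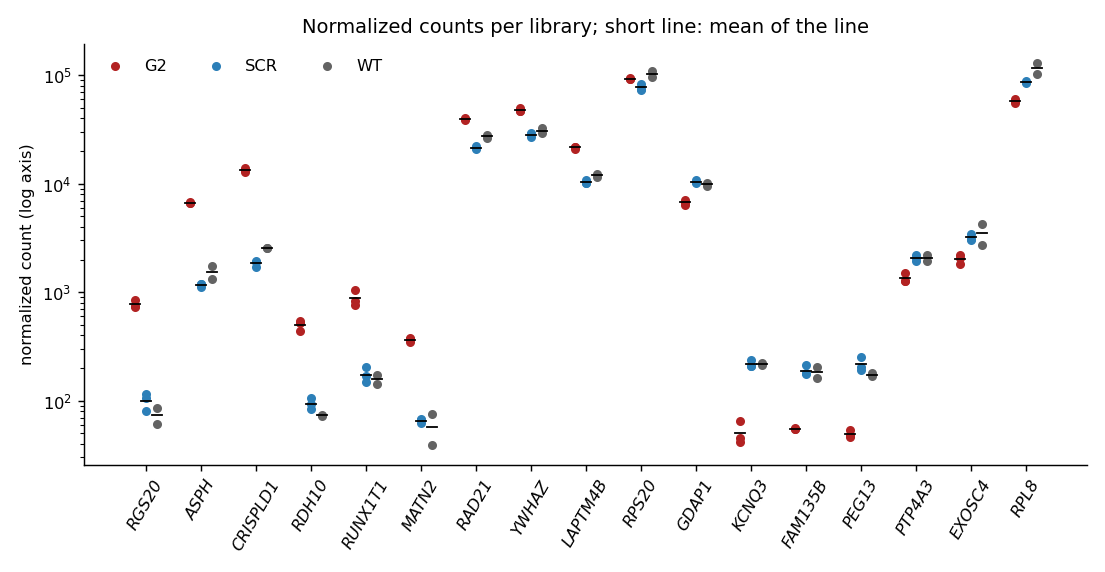
Normalized counts per library (points, log axis) and line means (short bars) of 17 members in G2, SCR and WT. RGS20 to MATN2 are several times higher in G2 than in the controls, RAD21, YWHAZ and LAPTM4B are moderately higher, and KCNQ3, FAM135B and PEG13 are lower.

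Beyond 125 Mb the members that fell in both G2 comparisons and were not called in SCR/WT numbered 7 (7.4%). This is near the share of all tested genes, 5.63%, and of genes with a mean of at least 100, 4.86%. The genes are therefore described singly and not as a trait of the end of the arm. KCNQ3, FAM135B and PEG13 averaged below 100 in G2, and were members through the controls. KCNQ3, a subunit of the potassium channel that carries the M current of neurons (GSHG0042857, from 132120859 to 132481095), had normalized counts of 45.2, 65.7 and 41.9 in G2, 209, 239 and 209 in SCR, and 212 and 220.4 in WT. All G2 values lay far below those of the controls, which were close together, at -2.11 ± 0.18 and -2.09 ± 0.20. FAM135B (GSHG0042887, from 138130023 to 138497730) had 54.6, 54.7 and 55.9 in G2, 214, 175 and 181 in SCR, and 204 and 163 in WT, with very even G2 libraries and -1.76 ± 0.16 and -1.71 ± 0.18. The imprinted noncoding RNA PEG13 (GSHG0042896, from 140094895 to 140100535) had 46.1, 53.7 and 48.4 in G2, 255, 193 and 203 in SCR, and 179 and 168 in WT, at -2.11 ± 0.16 and -1.79 ± 0.18. It lies within TRAPPC9, a gene of vesicle traffic that was not called, at -0.01 ± 0.08 and -0.05 ± 0.09.

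The other 4 fell by little more than the fold threshold. PTP4A3, a phosphatase, stood at -0.64 ± 0.09 and -0.63 ± 0.10, and its G2/WT call was lost without G2 replicate 1 (-0.58) or WT replicate 1 (-0.52). EXOSC4, a subunit of the RNA exosome that degrades RNA from its 3′ end, had normalized counts of 1819.7, 2079 and 2192 in G2, 3471, 3053 and 3126 in SCR, and 4232 and 2730.3 in WT. The WT libraries lay on both sides of SCR, and without WT replicate 1 the G2/WT change went from -0.75 ± 0.15 to -0.43, no longer called, beside -0.67 ± 0.13 in G2/SCR. MFSD3 had -0.60 ± 0.13 and -0.72 ± 0.14, with the first call lost without G2 replicate 1 (-0.49) or SCR replicate 1 (-0.54) and the second without WT replicate 1 (-0.50). RPL8, of the large ribosomal subunit, had 55809, 57777 and 59840.3 in G2, 87185, 84856 and 88210.0 in SCR, and 129331 and 102906 in WT. Both controls lay above G2 in all libraries, at -0.59 ± 0.07 and -0.997 ± 0.081. The first value sat at the threshold and was not called without G2 replicate 1 (-0.56), SCR replicate 1 (-0.58) or SCR replicate 3 (-0.57). RPL8 also overlaps several genes, COMMD5 among them.

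At the end of the arm 7 members stood on the neuronal list, of which 1 rose and 4 fell in G2/SCR and 2 rose and 3 fell in G2/WT, with medians of -1.42 and -0.58. The 4 that fell in G2/SCR were SCRT1 (-1.48, and -0.58 in G2/WT), TSNARE1 (-1.42 and -0.81), KCNQ3 and FAM135B. KCNQ3 and FAM135B were members only through the controls, so the counts and medians of the list follow in part from the filter. The 94 members there had 7 rising and 13 falling in the first comparison and 6 and 15 in the second, and no test compared the list with them. ADGRB1, EPPK1 and KHDRBS3, also described here, were not on the list. ADGRB1, an adhesion receptor of synapses (GSHG0042061, from 142449649 to 142545007), had normalized counts of 184, 186 and 226 in G2, 868, 740.5 and 873 in SCR, and 1378 and 1372 in WT. It was lowest in G2, higher in SCR and highest in WT, without overlap, at -2.05 ± 0.11, -2.79 ± 0.12 and, in SCR/WT, -0.74 ± 0.12 (adjusted p = 0.00055, Benjamini-Hochberg, limma). GRINA, a membrane protein named for its likeness to a glutamate receptor subunit, was not called, at -0.07 ± 0.09 and -0.03 ± 0.10. ARC, an immediate early gene of synaptic plasticity, went the other way, with 889, 802 and 947 in G2, 344, 312 and 320.4 in SCR, and 523 and 405 in WT and log2 fold changes of 1.43 ± 0.11 and 0.93 ± 0.12. EPPK1, a cytolinker of epithelia, had 276, 285 and 480.3 in G2, 59.2, 19.7 and 68.8 in SCR, and 2.48 and 24.8 in WT, with replicate 3 of G2 far above the others and all control values low. Its changes were 2.92 ± 0.63 and 5.15 ± 0.71, and its SCR/WT change of 2.22 ± 0.71 was not called without WT replicate 1 (0.78). EPPK1 averaged 49.2 in SCR and 13.7 in WT, so it was a member only through its G2 values. KHDRBS3, an RNA-binding splicing regulator, rose in both comparisons at 1.06 ± 0.07 and 1.10 ± 0.07. SCRT1, TSNARE1, ADGRB1, ARC and KHDRBS3 were named after their values were seen.

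Around 125 Mb the values did not change at a single gene. RNF139 and TATDN1, which overlap each other, stood at 0.77 and 0.54 and at 0.42 and 0.25 in G2/SCR and G2/WT. The next members were MTSS1 at -0.54 and 0.53 and ZNF572 at -0.04 and 0.48. Beyond the mark, WASHC5, of the WASH complex of endosomes, still had 0.50 and 0.48, and NSMCE2, of the SMC5-SMC6 complex, 0.39 and 0.13. TRIB1 with -0.08 and -0.28 and PRNCR1 with -0.13 and -0.45 came next. Further out, ASAP1 at 0.38 and 0.22 and PTK2 (focal adhesion kinase) at 0.26 and 0.16 were higher in G2 without reaching the fold threshold. These neighbours were picked after the step was seen.

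At the boundary of the rule, the last reference genes below 45 Mb were POMK and HGSNAT, with log2 fold changes of 0.28 and 0.14 and of 0.71 and 1.06 in G2/SCR and G2/WT. The first members above it, SPIDR and PRKDC, had 0.67 and 0.35 and 0.67 and 0.28. Just above the mean of 100 lay LOC101929709 and WDR97, at 0.29 and 0.21 and 0.08 and 0.34, and just below it MAILR and ASNSP1, at -0.11 and 0.16 and 2.07 and 0.80.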

How the data were processed

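Polyadenylated RNA of 3 G2, 3 SCR and 2 WT libraries was sequenced. According to the submitters' notes and the methods, the authors aligned reads by STAR (hg38), assigned them to FAST DB genes by featureCounts (Subread 1.5.0) and divided the counts by DESeq2 size factors. The values the authors deposited are a signal, that is normalized counts for each gene in each library, neither pooled nor scaled to length. Strand setting and treatment of reads with several matches are not given in the sources used here, so reads of overlapping genes cannot be told apart.

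Samples were grouped by their labels. Values were whole multiples of 1 step per library (100% of values, within 0.02), which gave recovered totals. Most low counts were multiples of 3, so a gene with at most 9 counts in every library of a line was taken as at the floor, and bounds cover counting error only. The step of WT replicate 2 was too near 1 for a check, so count models were run on G2 and SCR only.

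limma 3.58.1 (lmFit, eBayes with trend, R 4.3.3) was fitted to log2(normalized count + 1), with 1 mean per line, for the 18947 genes whose mean reached 10, and p-values were adjusted over all of them (Benjamini-Hochberg). The pseudocount understates fold changes of weakly expressed genes. Calls required a 1.5-fold change and p no higher than 0.05. Values after ± are standard errors for log2 fold changes. On recovered counts of G2/SCR, DESeq2 1.42.0 called 2842 genes higher and 2131 lower and edgeR 4.0.16 called 2909 and 2184, beside 2858 and 2230 with limma. The fit was tested on simulated data.

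The members, lists and tests were chosen with earlier results of these data known. Named genes were the 8 largest rises and 8 largest falls among members called in both G2 comparisons and not in SCR/WT, the 2 best expressed members of each role list, the best expressed member of each window, genes beside the thresholds, the 2 largest rises and 2 largest falls in SCR/WT, and PRPF40B. Other genes named as examples were chosen after their values were seen. Intergenic background and splicing were not analysed here.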

Additional observations from a re-analysis of the deposited data

How the results depend on the processing

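The numbers of members called, and their medians, were recomputed under other settings. The G2/SCR and G2/WT medians of all members and of the members from 45 to 125 Mb stayed above 0 under every setting tried. At a fold of at least 2, 47 members were higher in G2/SCR, 41 in G2/WT and 8 in SCR/WT, and 8, 5 and 4 were lower. With members of a mean of at least 30, SCR/WT had 27 higher and a median of -0.035, and G2/SCR had 27 lower. With a mean of at least 300, SCR/WT had 7 higher, lower calls numbered 10 (G2/SCR) and 12 (G2/WT), and the medians were 0.43, 0.37 and -0.082. With the same total for all libraries, the medians were 0.30 in G2/SCR, 0.54 in G2/WT and 0.21 in SCR/WT (reversed), 26 members were lower in G2/SCR, 10 in G2/WT and 6 in SCR/WT, and 49 were higher in SCR/WT. This scaling moved the median of all genes with a mean of at least 100 to -0.08, 0.17 and 0.25. Relative to that median, members from 45 to 125 Mb stood at 0.65, 0.64 and -0.03, as they did with the deposited scaling. Their SCR/WT median was 0.21 and the G2/WT median of members from 125 Mb on was 0.035, both reversed. Of all genes called, 47.4% were then higher in G2/SCR, 75.8% in G2/WT and 90.7% in SCR/WT, against 56.2%, 59.3% and 65.6%. With the same upper quartile, 26 members were lower in G2/SCR and the medians were 0.30, 0.32 and -0.0068. Subtracting the median of the GC decile, an alternative chosen after seeing the data, gave 0.36, 0.31 and -0.033.

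With each library left out in turn, members called higher ranged from 101 to 108 in G2/SCR, 94 to 102 in G2/WT and 16 to 22 in SCR/WT, and members called lower from 15 to 23, 14 to 26 and 11 to 16. The medians ranged from 0.39 to 0.43, 0.35 to 0.36 and -0.063 to -0.031. A replicate block by the number in the titles gave 105, 95 and 18 higher, 17, 22 and 12 lower, and medians of 0.40, 0.36 and -0.06. A block by library number gave an SCR/WT median of -0.044. Libraries with the same number did not deviate together (correlations of -0.17 to 0.15 over 7 pairs by title and 4 by library number), so the numbers were not taken as pairs. DESeq2 called 105 members higher and 17 lower in G2/SCR, and edgeR 106 and 16. Without the WT line, also chosen after seeing the data, no count of members in G2/SCR moved by over 1.5 times. Of the values of single genes, 2570 stayed on their side of the call thresholds, 27 lost a call and 43 gained one. Only 2 WT libraries limit the comparisons with WT, and the depth was at least 59804395 recovered counts.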

Other observations

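Genes of the long arm that were too weakly expressed to be members showed a similar division by position. Of the 134 tested genes with a mean of 10 to 100 normalized counts, the 85 from 45 to 125 Mb had medians (log2) of 0.57 for G2/SCR and 0.66 for G2/WT. In G2/SCR 29 were called higher (34.1%) and 3 lower (3.5%), and in G2/WT 35 (41.2%) and 3 (3.5%). The 49 from 125 Mb on had medians of -0.35 and -0.26. In each comparison 5 of these were called higher (10.2%) and 8 lower (16.3%). Over all tested genes the shares were 15.1% and 11.8% in G2/SCR and 17.7% and 12.2% in G2/WT. In SCR/WT the medians were 0.22 and 0.14. At these levels the added pseudocount draws fold changes toward 0, and the spread between libraries is larger.

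The 14 genes left out by name that lie between 45 and 125 Mb had medians of 0.67 (G2/SCR) and 0.22 (G2/WT). ASNSP1, a pseudogene just below the mean of 100, had 160 ± 25.1 normalized counts in G2 (SD, n = 3), 37.4 ± 6.95 in SCR (n = 3) and 91.0 ± 6.53 in WT (n = 2), with SCR lowest, WT between and G2 highest, as for PI15 among the members. HGSNAT, an enzyme of lysosomal heparan sulfate breakdown and the last reference gene before the boundary, had 7862 ± 352 in G2, 4791 ± 76.1 in SCR and 3756 ± 161 in WT.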
